A study of Mus musculus with 4 samples.

Results

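The enzymes of branched-chain amino acid catabolism were followed in mouse hearts after transverse aortic constriction (TAC), a surgical narrowing of the aortic arch that makes the left ventricle pump against a raised pressure, and after the sham operation. The genes examined were Bcat2, Bckdha, Bckdhb, Dbt, Bckdk, Ppm1k, Ivd, Mccc1, Hibadh and Pcca, chosen by name, with no measured value in the rule, though earlier results of these data were known at the time. A probe was assigned to one of them when the transcript accession given for it by the array file was a RefSeq or Ensembl transcript of that gene. This assigned 11 of the 55681 probes, since Mccc1 had 2 probes and each other gene had 1, and the 10 genes stood among 21762 genes that could be named on the array.

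The series holds 4 arrays, 1 for each of sham at 2 weeks, TAC at 2 weeks, sham at 8 weeks and TAC at 8 weeks after the operation. All hearts came from male C57BL/6J mice with no transgene or other treatment stated, and the age is given as 10 weeks for the 2-week arrays and 16 weeks for the 8-week arrays in the labels, while the methods put the surgery at 12 weeks of age. Each array was hybridised with 1 pool of total RNA, 500 ng from each of 4 to 6 mice. The spread between animals could therefore not be measured, and a difference at either time compares single pools with no test. TAC and sham could be tested only over both times together, in a fit with 1 residual degree of freedom.

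Leucine, isoleucine and valine share the first 2 steps of their breakdown in mitochondria: a reversible transamination, and then the oxidative decarboxylation of the branched-chain keto acids by the branched-chain keto acid dehydrogenase complex (BCKDH), which commits them to oxidation. The complex is switched off when the kinase Bckdk phosphorylates its alpha subunit and switched on when the mitochondrial phosphatase Ppm1k removes that phosphate. Behind the complex the carbon skeletons go separate ways, leucine to acetyl-CoA and acetoacetate, valine to propionyl-CoA and isoleucine to both acetyl-CoA and propionyl-CoA, and the heart is among the organs known to oxidise them.

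All 10 genes were lower in TAC than in sham hearts at 2 weeks and again at 8 weeks. The median log2 difference between TAC and sham was -0.35 at each time, whereas the median over all genes tested was 0.000627 at 2 weeks and -0.0093 at 8 weeks. Among all genes 49.9% of 15415 lay below 0 at 2 weeks and 51.5% of 15478 at 8 weeks, and 35.6% of 15030 genes lay below 0 at both times. Most of the differences were small: 1 of the 10, Ppm1k, was at least 1.5-fold lower, at both times, against 3.32% of all genes at the earlier time, 5.63% at the later and 1.28% on both occasions. None of the 10 was at least 1.5-fold higher, where 6.78% and 7.22% of all genes were, and none was at least 2-fold lower, where 1.18% and 2.05% were.

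Signals are given as log2 of the processed signal relative to the 75th percentile of the same array, so that 0 is the signal at that percentile. They serve to compare 1 probe between arrays and not to compare genes with each other, because probes differ in how strongly they hybridise. The 75th percentile itself lay between 206 and 248 units of processed signal on the 4 arrays, 54.7 to 58.5% of probes were well above background, no spot was saturated, and all 11 probes of the 10 genes were well above background on all 4 arrays. Nppa and Myh7, genes known to be induced in the overloaded ventricle, were 3.58-fold and 6.55-fold higher in TAC at 2 weeks and 6.28-fold and 12.9-fold higher at 8 weeks, as a check of the labels. The hypertrophy marker Nppb differed by a log2 of 1.03 and 1.94, and the adult myosin heavy chain Myh6 by -0.19 at both times, or by -0.36 and -0.54 by its other probe.

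In the absence of replicate arrays, 2 yardsticks were used. The 177 probes printed as several spots gave the spot-to-spot error of a log2 difference between TAC and sham, an SD of 0.0704 at 2 weeks and 0.0654 at 8 weeks, and 1.96 times that SD, 0.138 and 0.128, bounded what spot noise alone gives. It holds no variation between mice or between hybridisations. The difference between the 2 sham arrays took in both, together with the 6 weeks between them in age and time since surgery.

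**Figure D1:**
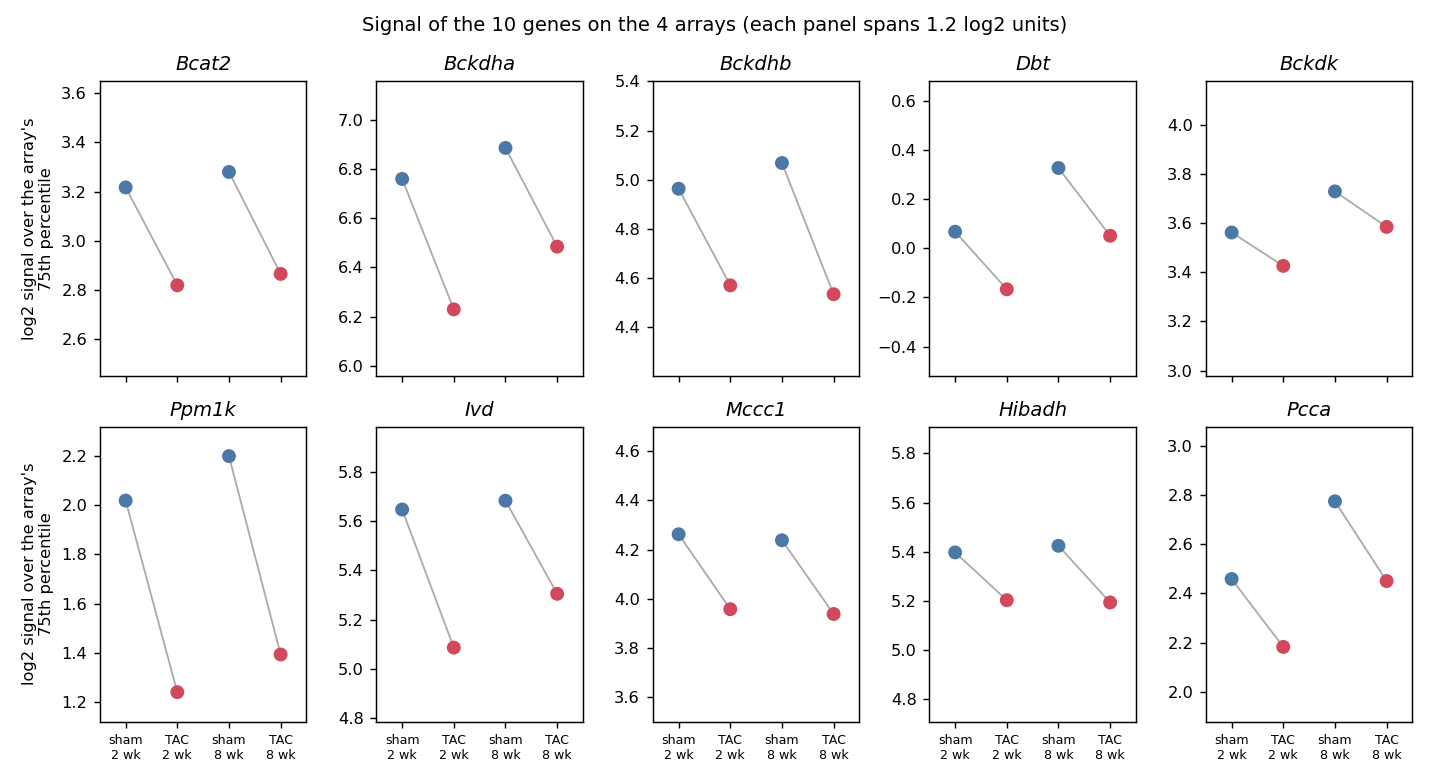
Log2 signal relative to the array's 75th percentile for each of the 10 genes on the 4 arrays, 1 point per array with no replicates, so that no error bar is drawn. In 9 of the 10 panels both TAC points lie below both sham points, Bckdk being the exception. The same order held for 24.8% of 15863 genes. In Dbt and Pcca the gap between the groups is only 0.02 and 0.01.

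Bcat2, the mitochondrial aminotransferase that carries out the transamination in heart and muscle, had a log2 signal of 3.22 in sham and 2.82 in TAC at 2 weeks, and of 3.28 in sham and 2.87 in TAC at 8 weeks. It was 1.32-fold lower in TAC at 2 weeks and 1.33-fold lower at 8 weeks, and the 2 sham arrays differed by 0.06 on the log2 scale. Both TAC arrays lay well under both sham arrays. The cytosolic aminotransferase Bcat1 was dim by its brightest probe, between -3.23 and -2.64 on the 4 arrays, and its TAC values were higher by a log2 of 0.51 and 0.29. Another probe, well above background on 1 array only, gave 0.09 and -0.55, and the third was well above background on none.

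The 3 catalytic genes of BCKDH were all lower in TAC. Bckdha, the alpha subunit of the decarboxylase and the site of the regulatory phosphorylation, read 6.76 in sham and 6.23 in TAC at 2 weeks and 6.89 in sham and 6.48 in TAC at 8 weeks. Bckdhb, the beta subunit that pairs with it, read 4.96 and 4.57 at 2 weeks and 5.07 and 4.53 at 8 weeks. The alpha subunit was 1.44-fold lower at 2 weeks and 1.32-fold lower at 8 weeks, and the beta subunit 1.31-fold and 1.45-fold, and the difference between their log2 changes, -0.14 at 2 weeks and 0.13 at 8 weeks, lay within the spot noise of such a difference, 0.195 and 0.181. The subunits were therefore not separable.

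Dbt, the acyltransferase that forms the core of the complex, was lower by less than Bckdha and Bckdhb. The gap passed the spot noise of such a difference only against Bckdha at 2 weeks and against Bckdhb at 8 weeks. Dbt read 0.07 in sham and -0.17 in TAC at 2 weeks and 0.33 in sham and 0.05 in TAC at 8 weeks, 1.18-fold and 1.21-fold lower. The 2 sham arrays differed by 0.26 on the log2 scale, more than the TAC difference of -0.23 at 2 weeks, and the higher TAC array lay only 0.02 under the lower sham array. Dld, the dihydrolipoamide dehydrogenase that BCKDH shares with the pyruvate and oxoglutarate dehydrogenases, differed by -0.07 and -0.20.

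The kinase and the phosphatase of the complex differed in how much lower they were. Ppm1k read 2.02 in sham and 1.24 in TAC at 2 weeks and 2.20 in sham and 1.39 in TAC at 8 weeks. Its signal was 41.7% lower in TAC at 2 weeks and 42.8% lower at 8 weeks, 1.72-fold and 1.75-fold, and no other of the 10 genes was as much lower at either time by its brightest probe. At 2 weeks 1.90% of all genes tested had a lower change than Ppm1k, and at 8 weeks 3.06%.

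Bckdk read 3.56 in sham and 3.43 in TAC at 2 weeks and 3.73 in sham and 3.58 in TAC at 8 weeks. It was 1.10-fold lower at both times, a log2 difference of -0.14 that lay within the spot noise at 2 weeks, just past it at 8 weeks, and under the difference of 0.17 between the sham arrays. Bckdk was the 1 gene of the 10 whose groups overlapped, as the TAC array at 8 weeks lay above the sham array at 2 weeks. The log2 change of the kinase exceeded that of the phosphatase by 0.64 at 2 weeks and 0.66 at 8 weeks. These are transcript levels, and the phosphorylation of the complex was not measured on these arrays.

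**Figure D2:**
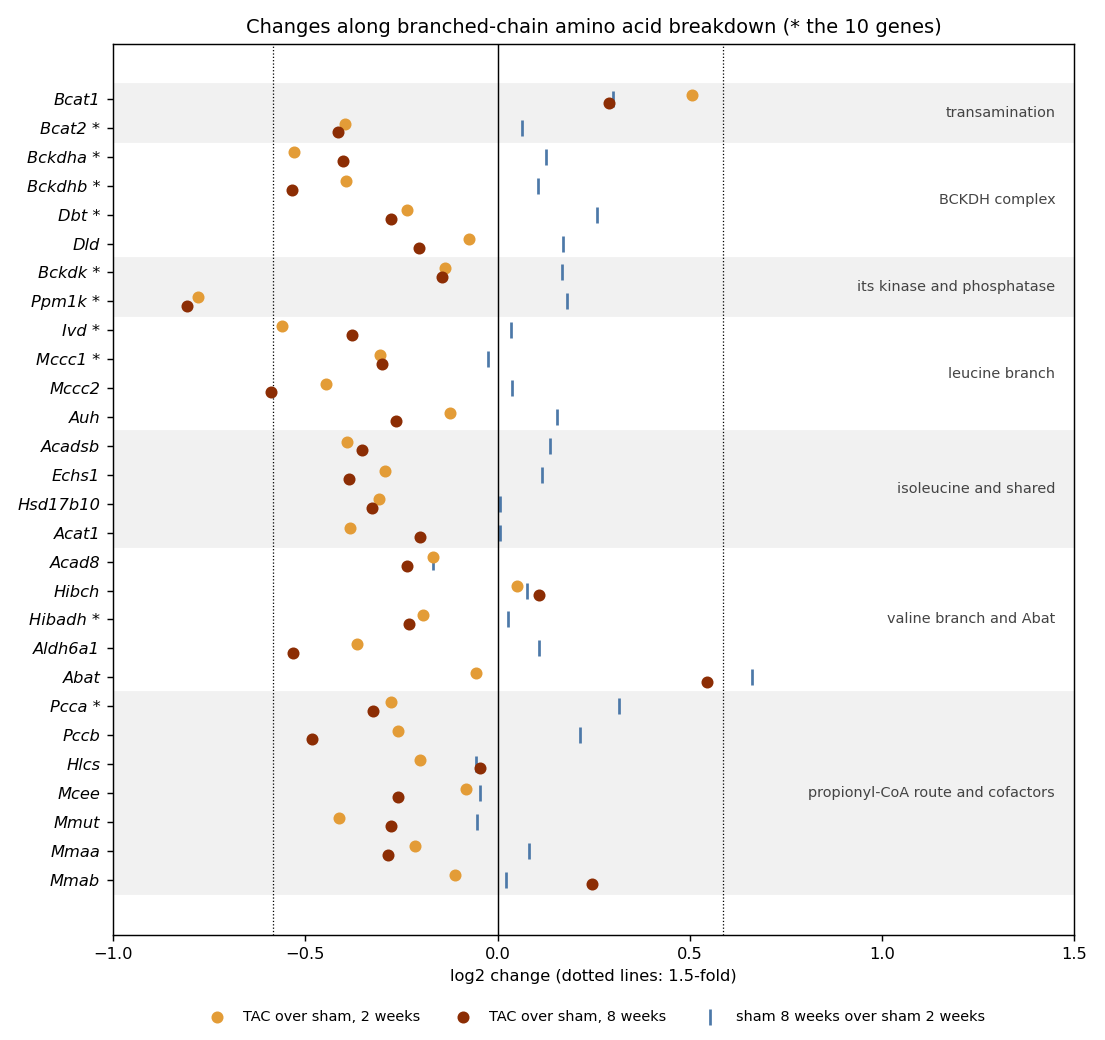
Log2 difference between TAC and sham at 2 and 8 weeks, 1 point per gene and time, for the 10 genes and 18 of the 19 other enzymes of the pathway ordered by step; blue ticks mark the difference between the sham arrays, dotted lines 1.5-fold, and single pools carry no error bar. Ppm1k at -0.78 and -0.81 is the lowest of the 10 genes at both times, and Bckdk at -0.14 is the closest to 0.

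The promoter sequences of the phosphatase and the kinase are shown because these genes lay at the ends of the range of the 10, and that of Ivd because it had the most CCAAT boxes of those examined. Each is the 250 bases upstream of the annotated start in RefSeq, build GRCm38.p6, read 5′ to 3′ on the strand of the gene. Ppm1k lies at chr6:57535488-57535737 on the minus strand, Bckdk at chr7:127903823-127904072 on the plus strand and Ivd at chr2:118861744-118861993 on the plus strand. Capitals mark GC boxes (GGGCGG) and CCAAT boxes (CCAAT), each on either strand, the second reading ATTGG when it lies on the opposite strand.
Ppm1k: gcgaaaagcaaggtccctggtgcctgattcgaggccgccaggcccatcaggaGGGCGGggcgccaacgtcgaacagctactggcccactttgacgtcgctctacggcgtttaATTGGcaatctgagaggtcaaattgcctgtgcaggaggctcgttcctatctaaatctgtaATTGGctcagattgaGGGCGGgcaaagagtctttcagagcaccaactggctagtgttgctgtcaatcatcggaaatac
Bckdk: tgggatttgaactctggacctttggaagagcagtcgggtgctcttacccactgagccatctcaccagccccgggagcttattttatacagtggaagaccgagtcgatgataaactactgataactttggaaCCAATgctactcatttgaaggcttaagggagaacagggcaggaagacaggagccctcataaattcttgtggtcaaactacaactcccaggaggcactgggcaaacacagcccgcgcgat
Ivd: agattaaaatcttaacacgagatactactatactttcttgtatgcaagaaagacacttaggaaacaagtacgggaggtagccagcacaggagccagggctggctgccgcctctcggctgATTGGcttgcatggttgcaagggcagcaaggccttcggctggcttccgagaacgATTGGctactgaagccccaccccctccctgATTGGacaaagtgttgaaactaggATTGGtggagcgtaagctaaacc

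The Ppm1k window held 2 GC boxes and 2 CCAAT boxes, the Bckdk window 1 CCAAT box and no GC box, and the Ivd window 4 CCAAT boxes. Windows were found for 9 of the 10 genes, Dbt being the gene without a match, and some genes had several starts, which gave 12 windows. A GC box was present in 5 of these 12 windows and in 32.7% of the 32851 windows of all genes, and a CCAAT box, a motif picked after the sequences had been seen, in 8 of 12 and in 33.8%. The nuclear receptor half-site AAGGTCA, the E-box CACGTG, the ETS site CCGGAAG and the NRF1 core GCATGCG were in none of the 12 windows and in 4.08, 6.02, 6.91 and 3.02% of all windows. A match is a run of letters and not a measured binding site, and the absence of one says only that the letters are not in these 250 bases.

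In the leucine branch, Ivd and Mccc1 were both lower in TAC. Ivd, the isovaleryl-CoA dehydrogenase that takes the first step after BCKDH, read 5.65 in sham and 5.09 in TAC at 2 weeks and 5.68 in sham and 5.31 in TAC at 8 weeks. It was 1.48-fold lower at 2 weeks, the next largest difference after Ppm1k, and 1.30-fold lower at 8 weeks. Its sham arrays differed by only 0.04 on the log2 scale.

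Mccc1, the biotin-carrying subunit of methylcrotonyl-CoA carboxylase, read 4.26 and 3.96 at 2 weeks and 4.24 and 3.94 at 8 weeks by its brighter probe, 1.23-fold lower at 8 weeks with a log2 difference of -0.30 at each time. Its second probe read 2.86 and 2.38 at 2 weeks and 2.66 and 1.83 at 8 weeks, 1.39-fold and 1.77-fold lower. The 2 probes thus pointed the same way but differed in size, and at 8 weeks the second lay past the 1.5-fold mark and the first did not. Mccc2, the partner subunit, differed by -0.45 at 2 weeks and -0.59 at 8 weeks and was the only one of the 19 other pathway enzymes at least 1.5-fold lower, at 8 weeks, a share near the 5.63% of all genes. It lay at the threshold, and it was under it with median or no scaling, normexp or cardiomyocyte centring.

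Further along the leucine branch, Auh, the methylglutaconyl-CoA hydratase, lay at -0.12 and -0.26 by its brightest probe, while its other probes gave -0.68 and -0.50 in one case and 0.04 and 0.36 in the other. The probes of Auh thus gave no single direction.

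Hibadh, the hydroxyisobutyrate dehydrogenase of the valine branch, read 5.40 in sham and 5.20 in TAC at 2 weeks and 5.42 in sham and 5.19 in TAC at 8 weeks. It was 1.14-fold and 1.17-fold lower, and both differences were larger than the 0.03 between the sham arrays and than the spot noise. Aldh6a1, the methylmalonate semialdehyde dehydrogenase that follows it, differed by -0.37 and -0.53 (-0.62 and -0.52 by its other probe), and Hibch, the hydrolase ahead of it, by 0.05 and 0.11. Abat, an aminotransferase that also acts on the valine product, read 2.14 in sham and 2.08 in TAC at 2 weeks and 2.80 in sham and 3.34 in TAC at 8 weeks, and its 2 sham arrays differed by 0.66.

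In the isoleucine branch, none of whose own enzymes is among the 10, Acadsb, the short/branched-chain acyl-CoA dehydrogenase, lay at -0.39 and -0.35. The dehydrogenase Hsd17b10 lay at -0.31 and -0.33 and the thiolase Acat1 at -0.38 and -0.20. All 3 were lower in TAC at both times.

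Pcca, the biotin-carrying subunit of propionyl-CoA carboxylase, read 2.46 in sham and 2.18 in TAC at 2 weeks and 2.77 in sham and 2.45 in TAC at 8 weeks. It was 1.21-fold and 1.25-fold lower, but its sham arrays differed by 0.32, more than the TAC difference of -0.28 at 2 weeks, and the higher TAC array lay only 0.01 under the lower sham array. Its partner subunit Pccb differed by -0.26 and -0.48, and Mmut, the mutase that turns methylmalonyl-CoA into succinyl-CoA, by -0.41 and -0.28. Mmab, which handles the cobalamin cofactor of the mutase, differed by -0.11 and 0.25 by its brightest probe, by -0.34 and 0.25 by another and by -0.38 and -0.25 by the third, so that its direction at 8 weeks depended on the probe.

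Over the 10 genes, both TAC arrays lay below both sham arrays in 9, where 24.8% of 15863 genes did so and 23.9% lay the other way round. The difference exceeded 1.96 times the spot SD in 9 of 10 genes at 2 weeks, with Bckdk as the exception, and in 10 of 10 at 8 weeks. Of all genes, some dimmer than the probes that gave this SD, 25.0% and 31.8% were lower by more than that. The TAC difference exceeded the difference between the sham arrays in 7 of 10 genes at 2 weeks, all but Bckdk, Dbt and Pcca, and in 9 of 10 at 8 weeks, all but Bckdk, where 29.3% and 31.8% of all genes were lower by more than their sham difference. The sham array at 8 weeks read higher than that at 2 weeks in 9 of the 10, Mccc1 being the exception, and 43.2% of all genes lay below 0 in that comparison.

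Over both times together, with operation and time as terms, the median log2 difference of the 10 genes was -0.35. Ppm1k differed by -0.79 ± 0.072 (SE, 2 TAC and 2 sham arrays), with an adjusted p of 0.255 by limma with Benjamini-Hochberg adjustment over 15863 genes. Bckdk differed by -0.14 ± 0.072, with an adjusted p of 0.419 by limma. These SEs are drawn toward a spread that limma pools over all genes, with 1.56 prior degrees of freedom beside the 1 residual. They therefore measure neither the spread between animals nor mainly that of the gene itself. None of the 10 passed an adjusted p of 0.05, and neither did any gene on the array (0% lower), while 7 of the 10 and 7.48% of all genes were lower at an unadjusted p under 0.05. When limma let the variance follow the signal, 7 of the 10 and 4.34% of all genes were lower at an adjusted p under 0.05, so the call depended on how the spread was estimated from 1 degree of freedom.

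The change at 8 weeks minus that at 2 weeks ran from -0.14 for Bckdhb to 0.18 for Ivd, and none of the 10 passed 0.188, which is 1.96 times the spot SD of such a difference. Ivd came closest, its difference shrinking from 1.48-fold to 1.30-fold. The genes are not replicates, and the interval covers spot noise only.

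Because the 10 genes were all well above background, they were also set against the 8385 genes whose probe was at least as bright as that of the dimmest of them, Dbt. Of these genes 56.4% lay below 0 at the earlier time, 49.6% at the later and 39.6% on both occasions, while 1.45% and 1.78% were at least 1.5-fold lower. The 10 genes ranked from 1.90% (Ppm1k) to 25.3% (Bckdk) of all genes by change at 2 weeks, and from 3.06% to 29.7% for the same genes at 8 weeks.

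The other 19 enzymes of the pathway were mostly lower too, by less. At 2 weeks 17 of them lay below 0 with a median of -0.20, and at 8 weeks 15 with a median of -0.26, and these included the 15 that did so on both occasions. Of all genes 49.9% lay below 0 at 2 weeks, 51.5% at 8 weeks and 35.6% on both occasions. Both TAC arrays were below both sham arrays in 13 of 19, against 24.8% of 15863 genes. Hibch and, by its brightest probe, Bcat1 were above 0 at both times, and Abat and, by its brightest probe, Mmab at 8 weeks.

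Transport of the amino acids showed no single direction. The 7 amino acid transporters measured had medians of 0.08 and 0.19. Slc43a1, a carrier of large neutral amino acids, was dim, at -2.08 in sham and -2.57 in TAC at 2 weeks and -2.07 and -2.73 at 8 weeks, and was 1.58-fold lower at 8 weeks. Slc25a44, the mitochondrial carrier of branched-chain amino acids, differed by 0.08 and 0.03, or by -0.05 and -0.21 by its other probe, and Slc3a2, the heavy chain shared by several carriers, by 0.16 and 0.42.

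The 8 regulators of mitochondrial and amino acid metabolism had medians of -0.16 and -0.13. At 2 weeks 7 of them lay below 0 and at 8 weeks 5, against 49.9% and 51.5% of all genes. Among the 8, Klf15 stood lowest. Klf15, a transcription factor known to drive branched-chain amino acid catabolism in heart and muscle, read 2.04 in sham and 1.41 in TAC at 2 weeks and 2.03 in sham and 1.52 in TAC at 8 weeks. It was 1.54-fold and 1.43-fold lower, with sham arrays that differed by less than 0.01. Ppara and Esrra, nuclear receptors that control oxidative genes, lay at -0.35 and -0.19 and at -0.23 and -0.22, and Ppargc1a, their coactivator, at -0.12 and 0.31. The sham arrays of Ppargc1a differed by -0.59, more in size than its TAC difference at either time.

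The pyruvate and oxoglutarate dehydrogenases, built like BCKDH, offered a comparison. The 13 genes of these complexes and their regulators had medians of -0.11 and -0.18, against -0.35 at both times for the 10. Pdp2, a phosphatase that switches pyruvate dehydrogenase on, read 2.64 in sham and 1.67 in TAC at 2 weeks and 2.18 in sham and 1.12 in TAC at 8 weeks, 1.96-fold and 2.08-fold lower. Its other probe gave -1.04 at 2 weeks and was not well above background in TAC at 8 weeks. Pdp1, the other such phosphatase, differed by -0.57 and -0.40 by its brightest probe, by -0.38 and -0.32 by another and by -0.34 and -0.42 by the third. The log2 change of Ppm1k minus that of Pdp1 was -0.21 at 2 weeks and -0.41 at 8 weeks, and minus that of Pdp2 it was 0.19 and 0.25. The spot noise of such a difference was 0.195 and 0.181, so that Ppm1k and Pdp2 were not separable at 2 weeks. At 8 weeks Ppm1k lay between Pdp1 and Pdp2 by their brightest probes.

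**Figure D3:**
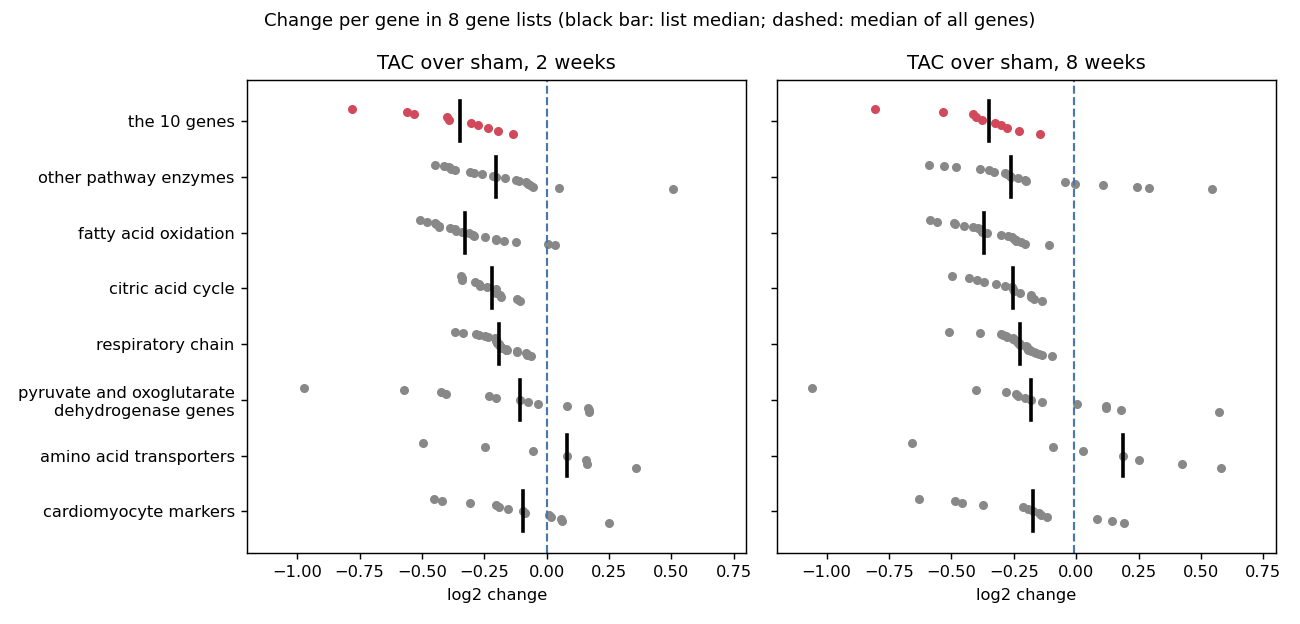
Log2 difference between TAC and sham at 2 weeks (left) and 8 weeks (right), 1 point per gene, for the 10 genes and 7 other lists; black bars are list medians, the dashed line is the median of all genes, and the spread is over genes and is no error. The median of the 10 genes lies at -0.35 in both panels, next to that of the fatty acid oxidation genes at -0.33 and -0.37.

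Other mitochondrial pathways were lower in TAC as well. The 20 fatty acid oxidation genes had medians of -0.33 and -0.37, nearly those of the 10, and 18 of 20 and 20 of 20 lay below 0. The 26 respiratory chain genes had medians of -0.19 and -0.23 and the 14 citric acid cycle genes of -0.22 and -0.26, and all of both lists lay below 0 at both times. No difference between the 10 genes and these lists was tested.

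Markers of several other cell types were measured in the same pools. Of the fibroblast markers all 9 were measured, with medians of 0.89 and 0.75 and a summed signal of 210 in sham and 290 in TAC at 2 weeks and 235 in sham and 341 in TAC at 8 weeks, in units of the 75th percentile, a sum in which the brightest probes weigh most. Tcf21 was the fibroblast marker that went the other way, at 0.07 and -0.55. All 9 macrophage markers were higher in TAC at both times, with medians of 0.44 and 0.40 and summed signals of 45.3 and 57.4 at 2 weeks and 46.7 and 61.7 at 8 weeks. The 8 endothelial markers had medians of 0.21 and -0.03, with 2 and 4 of them below 0, and summed signals of 192 and 230 at 2 weeks and 195 and 182 at 8 weeks. The 13 cardiomyocyte markers, all well above background on every array of this heart tissue, had medians of -0.09 and -0.17, ranging from -0.45 to 0.25 at 2 weeks and from -0.63 to 0.19 at 8 weeks, and 8 and 10 of them were lower in TAC. Their summed signal was 11319 in sham and 10666 in TAC at 2 weeks, and 10828 in sham and 9792 in TAC at 8 weeks.

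In a whole-heart pool, fewer cells of a type and less RNA per cell cannot be told apart, and the part of the cell mix in the lower signals was not tested. Markers of tissues that oxidise branched-chain amino acids and could be carried along in dissection were checked: Adipoq, Plin1, Cidec, Lep and Ucp1 of fat, and Myh1, Myh2, Myh4 and Mylpf of skeletal muscle, were not well above background on any array. The other markers of these lists were well above background on all 4, and the heart itself expresses some of them. Of fat, Fabp4 differed by 0.23 and -0.01, Retn by -0.42 and -0.68 and Cfd by -0.97 and 0.18. Of skeletal muscle, Acta1, an actin known to be induced in hypertrophy, differed by 3.09 and 3.41, Tnnt3 by 0.54 and 0.35, Tnni2 by -0.20 and -0.54 and Atp2a1 by -0.49 and -0.41. The summed signal of the 3 measured fat markers was 207 in sham and 242 in TAC at 2 weeks and 149 and 148 at 8 weeks, nearly all of it from Fabp4. That of the 4 of skeletal muscle was 73.3 and 509, then 82.8 and 734. Acta1 alone made up 58.4 and 498, then 67.9 and 723, of these sums, so that their rise is that of Acta1.

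Centring the arrays on the mean of the 13 cardiomyocyte markers in place of the 75th percentile, an alternative added after seeing the data, left the median of the 10 genes at -0.23 at 2 weeks and -0.16 at 8 weeks. Under that centring 9 of the 10 stayed below 0 at 8 weeks, and Bckdk read 0.05. The median of all genes moved to 0.12 and 0.18 by the same step. A scaling that moves every gene alike cannot change the distance between the 10 and all genes. Under the alternatives that could change it, the median of the 10 minus that of all genes ran from -0.39 to -0.33 at 2 weeks and from -0.38 to -0.29 at 8 weeks.

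**Figure D4:**
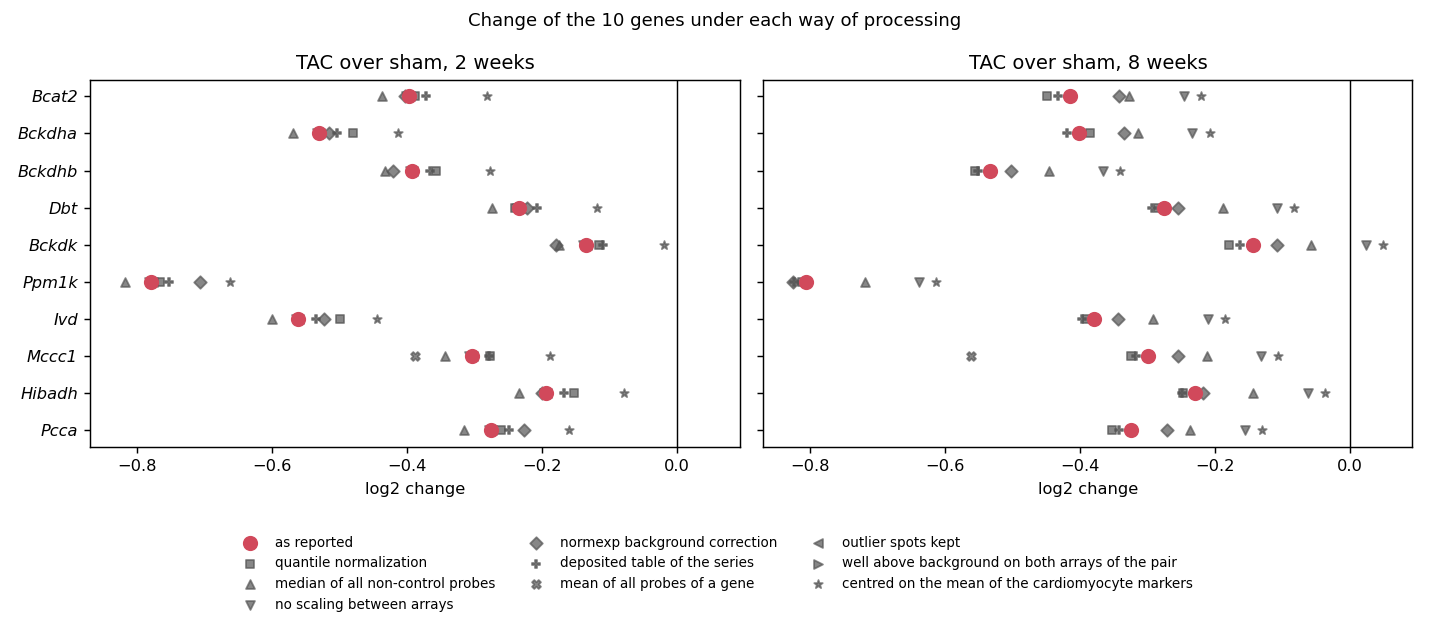
Log2 difference between TAC and sham of each of the 10 genes at 2 and 8 weeks under the reported setting and the alternatives, 1 marker per setting. Ppm1k is lowest under the reported setting at both times, and only Bckdk at 8 weeks reaches above 0, at 0.02 with no scaling and 0.05 with cardiomyocyte centring.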

How the data were processed

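Total RNA of mouse hearts, pooled from 4 to 6 mice per condition, was labelled with Cy3 and hybridised to 1-colour Agilent SurePrint G3 Mouse GE arrays, 1 per condition, all on 1 slide in 1 scan. The authors deposited the scanner output, whose intensity values are the processed signals of Feature Extraction (version 10.7.3.1 per the file headers, 9.1 in the submitters' processing notes), already background-corrected within each array, and a table of the same arrays in which the deposited signal is that intensity times 1 constant per array. The methods name GeneSpring GX11. Probes carry transcript accessions of the array design, annotated on mm9.

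Control and outlier spots were left out, spots of a probe averaged, and log2 values taken after division by the array's 75th percentile. A gene was read from its probe with the highest mean signal and counted as tested when well above background on at least 1 array of the pair. Of the 55681 probes, 32342 carried a RefSeq or Ensembl accession and 29502 matched a gene. With 1 array per condition no test was run at a single time, and thresholds of 1.5-fold and 2-fold describe sizes. Over both times TAC and sham were compared with limma (lmFit, eBayes) with operation and time as terms, added after seeing the data; it leaves 1 residual degree of freedom and takes the TAC difference to be the same at both times. The number of arrays limits the precision.

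The members and gene lists were chosen with earlier results of these data known. Genes named were the 10 members, each gene of the pathway, transporter, regulator and sister complex lists past 1.5-fold, and Nppa, Nppb, Myh7 and Myh6; further pathway genes were named by their step after their values had been seen. 1 enzyme of the pathway list, counted among the 19, is not reported here by name. Alternatives were quantile, median and no scaling, normexp background correction (offset 50), the deposited table, the mean of all probes, outlier spots kept, both arrays well above background, a 2-fold threshold and centring on cardiomyocyte markers. The scripts were tested on simulated data. Python 3.11.15, pandas 2.3.3, R 4.3.3 and limma 3.58.1 were used.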

Additional observations from a re-analysis of the deposited data

Results flagged for a closer look

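Slc1a5, a plasma membrane carrier of neutral amino acids, differed between TAC and sham by -0.247 on the log2 scale at 2 weeks and by 0.189 at 8 weeks, opposite directions at the 2 times. Its log2 signal was 0.80 in sham and 0.55 in TAC at 2 weeks, and 0.54 in sham and 0.73 in TAC at 8 weeks. The 2 sham arrays differed by -0.26, as much as either TAC difference, and another probe of the gene gave -0.09 at both times. The difference between the times was not tested, as each condition had 1 array.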

How the results depend on the processing

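Of 180 values of the 10 genes under the alternatives, 178 lay below 0. The exceptions were Bckdk at 8 weeks, at 0.02 with no scaling and 0.05 with cardiomyocyte centring, which was chosen after seeing the data. The 180 values are not separate checks. Requiring both arrays well above background left every value as reported, and the mean of all probes changed only those of Mccc1. Median scaling, no scaling, the deposited table and cardiomyocyte centring shifted all 10 genes alike at each time. The median of the 10 genes at 8 weeks was -0.26 with median scaling, -0.18 with no scaling and -0.16 with cardiomyocyte centring, and at 2 weeks -0.23 with cardiomyocyte centring. No scaling moved the median of all genes at 8 weeks to 0.16. With median scaling, which moved the median of all genes at 2 weeks to -0.04, 2 of the 10 were at least 1.5-fold lower at that time. The share of all genes past 1.5-fold was not counted under that scaling. At the 2-fold threshold 0 of the 10 were lower at either time, where 1.18% and 2.05% of all genes were. The 1 other pathway enzyme past 1.5-fold at 8 weeks, Mccc2, became 0 with median scaling, no scaling, normexp, cardiomyocyte centring or the 2-fold threshold. In the fit over both times, 0 of the 10 genes and 0% of all genes were lower at an adjusted p under 0.05 by limma. With normexp 2 of the 10 and 246 of 15863 genes were lower at that adjusted p. With a variance trend 7 of the 10 and 4.34% of all genes were. In that fit the median of the 10 was -0.27 with no scaling, -0.43 with the mean of all probes and -0.20 with cardiomyocyte centring. No paired analysis by replicate number was possible because no such number marks samples shared between groups; time was a term in that fit, and without it 0 of the 10 passed too. Leaving out 1 array leaves that fit no residual degree of freedom. With 1 pool per condition, the spread between animals is not known.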

Other observations

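Pdk4, a kinase that switches pyruvate dehydrogenase off, differed little between TAC and sham, by a log2 of 0.08 at 2 weeks and 0.12 at 8 weeks, but its signal was lower at 8 weeks than at 2 weeks in both kinds of heart. It read 6.74 in sham and 6.83 in TAC at 2 weeks, and 5.07 in sham and 5.19 in TAC at 8 weeks, a difference between times of -1.67 in sham and -1.64 in TAC. Pdk2, another such kinase, lay at -0.42 and -0.23 between TAC and sham, and Pdk3 at 0.17 and 0.57. Of the catalytic genes of pyruvate dehydrogenase, Dlat lay at -0.40 and -0.28, Pdha1 at -0.23 and -0.24 and Pdhb at 0.17 and 0.01, or at 0.03 and -0.14 by its other probe.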
